A study of Mus musculus with 10 samples.

Results

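The Hedgehog pathway genes described here were 3 ligands (*Ihh*, *Dhh* and *Shh*), the receptor *Ptch1*, the co-receptor *Boc*, the decoy receptor *Hhip*, the signal transducer *Smo* and the 3 GLI transcription factors (*Gli1*, *Gli2* and *Gli3*). They were chosen by gene symbol, and all 10 were found among the 49568 genes of the deposited table. Reactive cholangiocytes, the bile duct cells that expand after liver injury, had been sorted as EPCAM+/CD45-/TER119- cells from 5 *Smad4del* and 5 *Ctl* mice, and 1 RNA-seq library was made per mouse. *Smad4del* mice (labels: Smad4_floxed, genotype Smad4fl/fl) carried floxed *Smad4* alleles and, by the study's methods, Cre recombinase under the albumin promoter, which acts in hepatocytes and bile duct cells. *Ctl* mice (labels: Smad4_WT, genotype Smad4wt/wt) carried no Cre by the same methods, so loss of *Smad4* and the presence of Cre cannot be told apart. Every mouse of both cohorts had received the DDC diet, a liver toxicant that provokes a ductular reaction, at 0.1% for 2 weeks. Neither age nor sex is known from the sources used here. The labels also carry a cell line tag and a cell culture protocol, whereas the methods describe cells sorted from livers.

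Hedgehog ligands are secreted proteins that bind Patched receptors. Without ligand, PTCH1 holds the membrane protein SMO inactive at the primary cilium, and GLI3 is largely cut to a repressor. Ligand binding, helped by co-receptors such as BOC, releases SMO, and GLI2 and GLI3 then act as activators, with *Gli1*, *Ptch1* and *Hhip* among the best known genes they switch on. In injured liver, bile duct cells are a known source of ligand, and the best known responding cells are stellate cells and other mesenchymal cells. SMAD4 is the shared partner of the SMAD proteins that carry TGF-β and BMP signals to DNA.

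The promoters of *Gli2*, which had no read in *Smad4del* mice, and of *Smo*, the most highly expressed member, are shown because SMAD4 binds DNA and because these genes mark the ends of the range of differences seen below. The sequences are the 250 bases before the RefSeq gene start on GRCm38.p6, read 5′ to 3′ on the gene's strand, and capitals mark matches to the SMAD box CAGAC or its reverse complement GTCTG.
*Gli2*, chr1:119053620-119053869, minus strand: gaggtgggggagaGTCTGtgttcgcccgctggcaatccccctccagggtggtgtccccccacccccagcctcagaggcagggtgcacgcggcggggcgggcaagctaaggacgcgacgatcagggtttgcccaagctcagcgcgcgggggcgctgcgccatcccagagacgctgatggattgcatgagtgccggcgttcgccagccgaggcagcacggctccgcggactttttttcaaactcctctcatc
*Smo*, chr6:29735247-29735496, plus strand: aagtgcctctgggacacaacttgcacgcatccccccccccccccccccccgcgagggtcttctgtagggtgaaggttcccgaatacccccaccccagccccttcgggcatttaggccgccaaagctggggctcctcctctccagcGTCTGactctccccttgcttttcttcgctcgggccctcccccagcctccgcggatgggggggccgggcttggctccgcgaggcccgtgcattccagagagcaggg
The match began 237 bases before the gene start in *Gli2* and 105 bases before it in *Smo*. Both stretches were rich in G and C (67.2% in *Gli2* and 68.4% in *Smo*, against a median of 52.4% over all promoters), with 22 CpG dinucleotides in *Gli2* and 15 in *Smo* against a median of 6.

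Of the 10 genes, 7 matched the RefSeq promoter table (all but *Shh*, *Gli1* and *Boc*). The SMAD box was present on either strand in 5 of these 7 (*Gli2*, *Gli3*, *Ihh*, *Ptch1* and *Smo*), and in 42.2% of 32851 promoters of the same length. The palindromic SMAD site GTCTAGAC, which does not contain the 5-base box on either strand, was in 0 of the 7 and in 0.167% of all promoters. The GLI consensus GACCACCCA, also searched on both strands, was in 0 of the 7 and in 0.225% of all promoters. A match of these letters is a description of the window and not a binding site.

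*Smad4* itself was checked first. Its normalized count (reads divided by the size factor of the mouse) was 877 ± 144 in *Smad4del* and 3389 ± 347 in *Ctl* mice (SD, n = 5 each), a log2 fold change of -1.96 (limma, adjusted p = 1.09e-05), and the cohorts did not overlap (exact two-sided permutation p = 0.00794, the smallest that 5 mice against 5 can give). Reads on genes numbered between 16734672 and 19710560 in *Smad4del* and between 16249719 and 21277339 in *Ctl* mice. A normalized count near 1 thus stands for about 1 read. Values by mouse are given below in the order A5216, A5217, A5218, A5447 and A5624 for *Smad4del* and A5215, A5219, A5221, A5626 and A5628 for *Ctl* mice, the numbers of the submitters' labels.

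The members spanned a wide range of levels, and *Smo* stood above all others. To compare genes, levels were expressed as reads per kilobase of merged exon, scaled to 1e+06 reads on genes. *Smo* was at 18.6 ± 3.31 in *Smad4del* and 15.6 ± 2.62 in *Ctl* mice on this scale (SD, n = 5 each), and its lowest mouse (13.1 in *Smad4del*, 11 in *Ctl*) was above the highest mouse of every other member. *Dhh* (mean 1.75 in *Smad4del*, 2.12 in *Ctl*), *Ptch1* (1.63 in *Smad4del*, 1.78 in *Ctl*), *Ihh* (1.03 in *Smad4del*, 1.06 in *Ctl*) and *Boc* (0.515 in *Smad4del*, 1.61 in *Ctl*) came next, and neighbours in this order overlapped in their ranges over mice in both cohorts, so that their order is not set beyond the spread. Far lower were *Gli1* (0.066 in *Smad4del*, 0.111 in *Ctl*), *Gli3* (0.0443 in *Smad4del*, 0.162 in *Ctl*), *Hhip* (0.0372 in *Smad4del*, 0.0563 in *Ctl*), *Gli2* (0 in *Smad4del*, 0.0995 in *Ctl*) and *Shh* (0 in *Smad4del*, 0.0168 in *Ctl*), where neighbours in the order also overlapped. Transcript lengths follow all annotated exons of a gene, which lowers the value of genes with many long isoforms such as *Ptch1*.

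**Figure D1:**
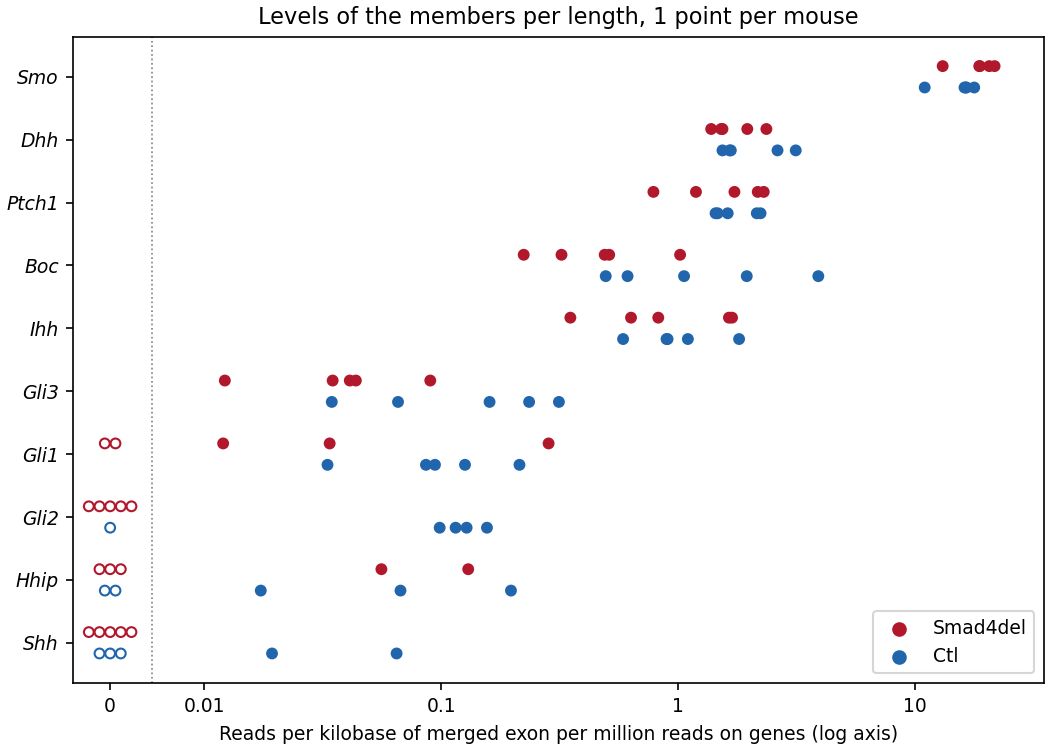
Level of each member in every mouse, as reads per kilobase of merged exon scaled to 1e+06 reads on genes (log axis, 1 point per mouse, *Smad4del* above *Ctl*, open circles left of the dotted line at 0). *Smo* lies at 11 or above in every mouse, and the GLI factors, *Hhip* and *Shh* lie below 1, with *Gli2* at 0 in all 5 *Smad4del* mice.

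For the comparison of cohorts, 6 of the 10 members passed the filter of a mean normalized count of at least 10 (*Ihh*, *Dhh*, *Ptch1*, *Smo*, *Gli3* and *Boc*). None of the 6 was called by limma at an adjusted p under 0.05, with 0 lower and 0 higher in *Smad4del* mice, where 4.69% of the 14870 genes tested were lower and 2.43% higher. At an unadjusted p under 0.05 the members were 2 of 6 (*Gli3* and *Boc*, both lower), against 27.4% of all genes tested. The cohorts overlapped in all 6 (0 without overlap), against 8.09% of all genes tested. The other 4 members (*Shh*, *Gli1*, *Gli2* and *Hhip*) fell below the filter and are given by their reads. DESeq2 on the recovered reads, which gave an adjusted p for 9 of the 10, called 2 lower (*Boc* and *Gli2*), against 8.39% of its genes, and 0 higher, against 5.67%. Limma without the filter called 1 of 10 lower (*Gli2*), against 1.90% of its genes. EdgeR called 0 of the 6 and, without a filter, 1 of 10 (*Gli2*). The share of all genes that edgeR called is not given here, so these edgeR counts have no background to be set against.

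**Figure D2:**
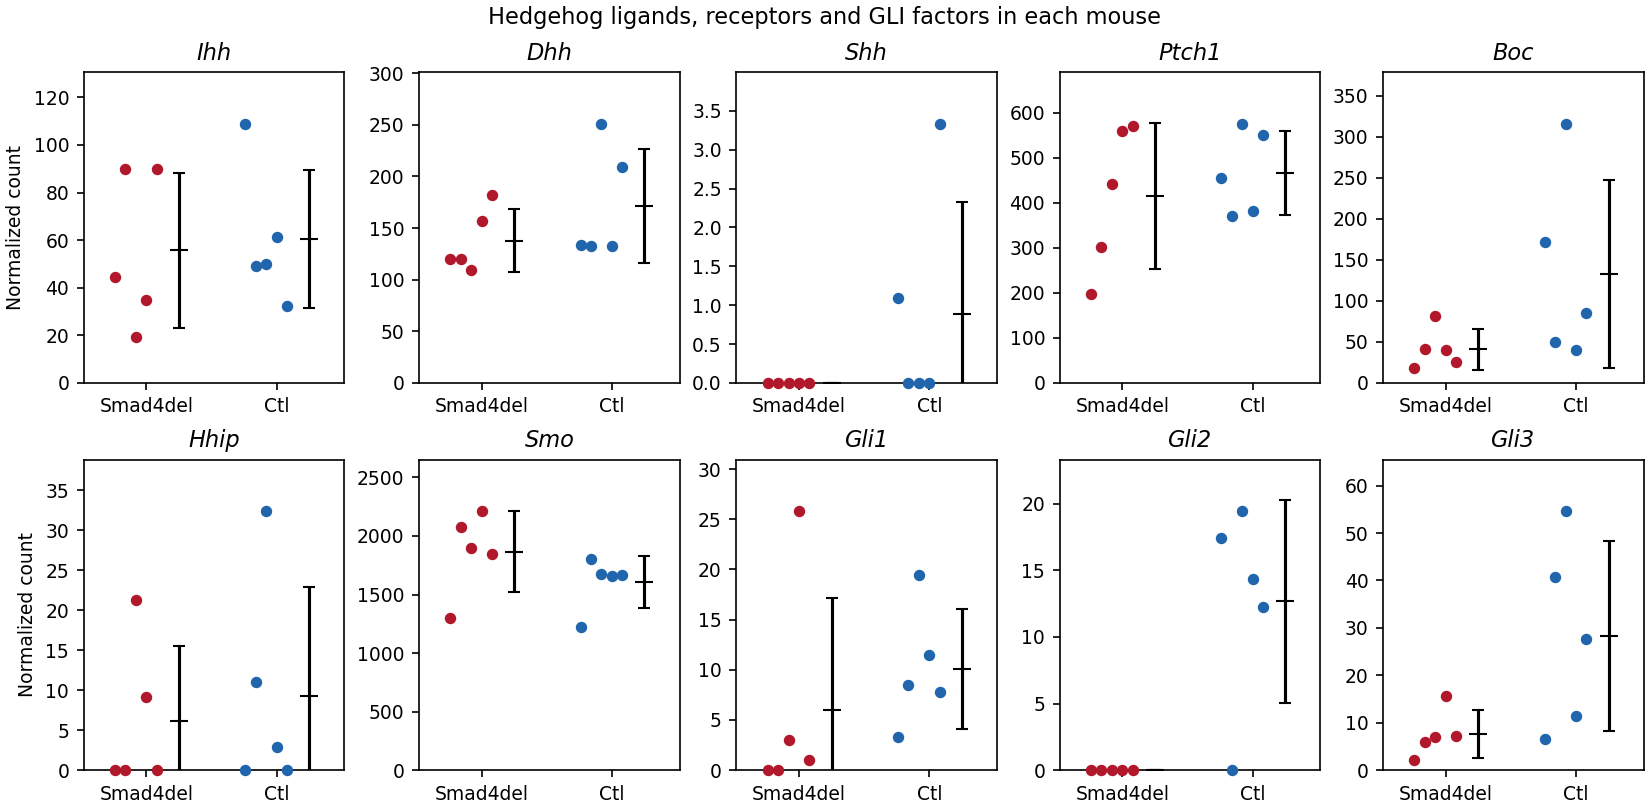
Normalized count of the 10 members in each mouse (1 point per mouse, *Smad4del* left of *Ctl*; the horizontal tick and bars are the mean ± SD, n = 5, cut off at 0; each panel has its own axis). *Gli2* is at 0 in all *Smad4del* mice and between 12.2 and 19.4 in 4 of 5 *Ctl* mice, while *Ihh*, *Dhh*, *Ptch1* and *Smo* overlap broadly.

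Among the ligands, *Ihh* and *Dhh* were detected in every mouse and did not differ between the cohorts beyond the spread of the mice. *Ihh* (Indian hedgehog, chr1:74945315-74951672) had normalized counts of 44.6, 89.8, 19.3, 35 and 89.8 in *Smad4del* mice, against 109, 49.3, 50, 61.4 and 32.2 in *Ctl* mice. The values of both cohorts were spread over the same range. Its log2 fold change was -0.22 (SE 0.47, 95% interval -1.24 to 0.81, limma adjusted p = 0.799), and the sign of this value was not stable across the alternatives.

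*Dhh* (desert hedgehog, best known in Schwann and Sertoli cells, chr15:98891152-98898540) had 120, 120, 110, 157 and 182 in *Smad4del* mice, against 134, 132, 251, 132 and 209 in *Ctl* mice. Its cohorts overlapped, with a *Ctl* mouse at the top and a *Smad4del* mouse at the bottom. The log2 fold change was -0.29 (SE 0.245, interval -0.82 to 0.25, limma adjusted p = 0.469). The gene overlaps *Rhebl1* on the same strand (84.6 ± 10.7 in *Smad4del*, 77 ± 20 in *Ctl*) and an antisense gene, and reads from a shared stretch cannot be assigned with certainty. The 8 Schwann markers, read beside *Dhh*, had a mean log2 level between 6.56 and 7.58 in *Smad4del* and between 6.87 and 7.72 in *Ctl* mice, but the defining marker *Sox10* was at or near 0, between 0 and 7.31 normalized counts in *Smad4del* and at 0 in every *Ctl* mouse. *Erbb3* was the most abundant of the list and *Pmp22* the 1 marker called, lower in *Smad4del* mice.

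*Shh* (sonic hedgehog, chr5:28456815-28467256) had 0 reads in all 5 *Smad4del* mice and 4 reads in *Ctl* mice in all, from 2 mice (1 and 3 reads). A difference could not be detected at this depth (exact permutation p = 0.444).

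The receptor *Ptch1* (chr13:63508328-63573598), itself a target of the GLI factors, was well expressed in both cohorts. Its normalized counts were 198, 302, 442, 558 and 570 in *Smad4del* mice, against 454, 370, 575, 382 and 550 in *Ctl* mice. The lowest pair of values belonged to *Smad4del* mice A5216 and A5217, and the other *Smad4del* mice lay within the *Ctl* range. Its log2 fold change was -0.25 (SE 0.278, interval -0.86 to 0.35, limma adjusted p = 0.585).

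*Boc*, an immunoglobulin-type co-receptor that presents ligand to PTCH1 (chr16:44485049-44558897), had the larger difference among the receptors, but it was not called. Its normalized counts were 17.6, 40.9, 82.1, 39.6 and 25.1 in *Smad4del* mice, against 172, 49.3, 316, 40.3 and 85.5 in *Ctl* mice. The 3 highest values belonged to *Ctl* mice A5221, A5215 and A5628, and the other 2 *Ctl* mice lay within the *Smad4del* range. In limma the log2 fold change was -1.43 (SE 0.583, interval -2.70 to -0.16, unadjusted p = 0.0305, limma adjusted p = 0.14), and the exact permutation p was 0.0556. DESeq2 gave a log2 fold change of -1.69 with an adjusted p of 0.0287 over 10 mice and of 0.0679 without *Smad4del* mouse A5217, and edgeR gave an adjusted p of 0.114. Over the 22 alternatives, the adjusted p of *Boc* ranged between 0.0287 and 0.269 and its log2 fold change between -1.75 and -1.01.

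The decoy receptor *Hhip* (Hedgehog-interacting protein, chr8:79965851-80058006), which binds and sequesters ligand, was detected in 2 *Smad4del* and 3 *Ctl* mice. It had 0, 0, 21.3, 9.21 and 0 normalized counts in *Smad4del* mice, against 0, 11, 32.4, 2.88 and 0 in *Ctl* mice, or 31 reads in all in *Smad4del* and 51 in *Ctl* mice. Mice at 0 were found in both cohorts, and the exact permutation p was 0.683.

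*Smo* (chr6:29735503-29761365), the transducer downstream of Patched, was the most abundant member and the only one tested whose mean was higher in *Smad4del* mice, by less than the spread of the mice. Its normalized counts were 1302, 2073, 1893, 2211 and 1845 in *Smad4del* mice, against 1224, 1807, 1679, 1661 and 1664 in *Ctl* mice. In 4 of 5 *Smad4del* mice the value was above that of every *Ctl* mouse, and the lowest mouse of each cohort lay well below the others. A log2 fold change of 0.20 was found (SE 0.149, interval -0.12 to 0.53, limma adjusted p = 0.396, exact permutation p = 0.262).

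The 3 GLI factors were near the limit of detection in both cohorts, and reads of *Gli2* and *Gli3* were fewer in *Smad4del* mice. *Gli2* (chr1:118834132-119053619), the main activator of the family, had 0 reads in each of the 5 *Smad4del* mice, against 16, 0, 21, 15 and 11 reads in *Ctl* mice (normalized counts of 17.4, 0, 19.4, 14.4 and 12.2). *Ctl* mouse A5219, also at 0, kept the cohorts from separating. Summed over mice, the 0 reads in 89286884 for *Smad4del* stood against 63 in 94358272 for *Ctl*. The exact interval for the ratio of these shares, *Smad4del* over *Ctl*, ran between 0 and 0.0637. That interval covers counting error only and not the spread between mice. The library of *Ctl* mouse A5219 was the deepest, with 21277339 reads on genes, and the reason for its 0 reads of *Gli2* was not tested. The exact permutation p was 0.0476. Limma without the filter gave an adjusted p of 0.0447, DESeq2 one of 0.00243 (0.00638 without A5217) and edgeR without a filter one of 0.0474. Leaving out each mouse in turn, limma without the filter called *Gli2* in 1 of 10 fits, that without *Ctl* mouse A5219, with adjusted p between 0.00156 and 0.107.

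*Gli3* (chr13:15463235-15730026), best known as the main repressor of the family, had 2.07, 5.99, 7.10, 15.7 and 7.31 normalized counts in *Smad4del* mice, against 6.53, 40.8, 54.6, 11.5 and 27.8 in *Ctl* mice. The 3 highest values were those of *Ctl* mice A5221, A5219 and A5628, and *Ctl* mice A5215 and A5626 lay within the *Smad4del* range. The counts rest on 39 reads in *Smad4del* and 150 in *Ctl* mice. The log2 fold change was -1.61 (SE 0.68, interval -3.09 to -0.12, unadjusted p = 0.0361, limma adjusted p = 0.153, exact permutation p = 0.0635), and in no alternative was *Gli3* called, with DESeq2 at an adjusted p of 0.0518.

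*Gli1* (chr10:127329882-127341974), the factor most often read as a measure of pathway activity, had 0, 0, 3.04, 25.8 and 1.04 normalized counts in *Smad4del* mice, against 3.26, 8.49, 19.4, 11.5 and 7.77 in *Ctl* mice. *Smad4del* mouse A5447 alone held 28 of the 32 *Smad4del* reads and was the highest of all 10 mice, while every *Ctl* mouse had at least 3 reads and all of them together 53. The exact permutation p was 0.111. The gene overlaps *Arhgap9* on the opposite strand (72.3 ± 105 in *Smad4del*, 324 ± 332 in *Ctl*). Without strand, reads from a stretch that both genes share cannot be assigned with certainty. Whether their exons overlap was not examined.

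The pathway genes outside the 10 members, grouped by role, gave 1 call among 87 tested of 92 listed, with 0 higher and 1 lower in *Smad4del* mice by limma. By DESeq2 2 were higher (*Foxm1* and *Bbs2*) and 7 lower (*Gas1*, *Gpc3*, *Sfrp1*, *Bmp4*, *Jag2*, *Ccnd2* and *Snai1*). These shares of the 87 (1.15% lower by limma, 2.30% higher and 8.05% lower by DESeq2) were below those of all 14870 genes tested (4.69%, 6.20% and 8.92%). The call was *Gas1*, a membrane-anchored co-receptor that acts beside BOC and CDON. It had 72.6, 88.8, 186, 213 and 286 normalized counts in *Smad4del* mice, against 452, 210, 979, 405 and 581 in *Ctl* mice. *Ctl* mouse A5219 lay among the *Smad4del* mice and the other 4 *Ctl* mice above them. The log2 fold change was -1.64 (SE 0.444, limma adjusted p = 0.047, exact permutation p = 0.0238). The call was narrow: it was lost when any of 7 mice (A5216, A5217, A5218, A5215, A5221, A5626 or A5628) was left out, with adjusted p between 0.0211 and 0.114 over the 10 fits, without the filter (0.0671), with quantile scaling (0.0538) and by edgeR (0.0556, or 0.129 without A5217), while DESeq2 kept it (0.0019).

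All 3 of the other co-receptors listed had lower means in *Smad4del* mice, with a median log2 fold change of -1.64 against -0.0050 over all genes tested, and 2 of the 3 (*Gas1* and *Cdon*) had an unadjusted p under 0.05, against 27.4% of all genes tested. *Cdon*, a co-receptor closely related to BOC, had 92.3, 113, 160, 294 and 169 in *Smad4del* mice, against 335, 206, 392, 196 and 399 in *Ctl* mice (-0.93, SE 0.324, limma adjusted p = 0.0963). *Lrp2*, a large endocytic receptor that also binds Hedgehog ligand, had 20.2 ± 22.5 in *Smad4del* and 62.4 ± 34.8 in *Ctl* mice (-1.97, SE 1.15, limma adjusted p = 0.287), and this value was -1.11 without *Smad4del* mouse A5218 and -2.86 without *Ctl* mouse A5219. In *Lrp2*, as in *Gli2* and *Gas1*, *Ctl* mouse A5219 was the lowest of its cohort.

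**Figure D3:**
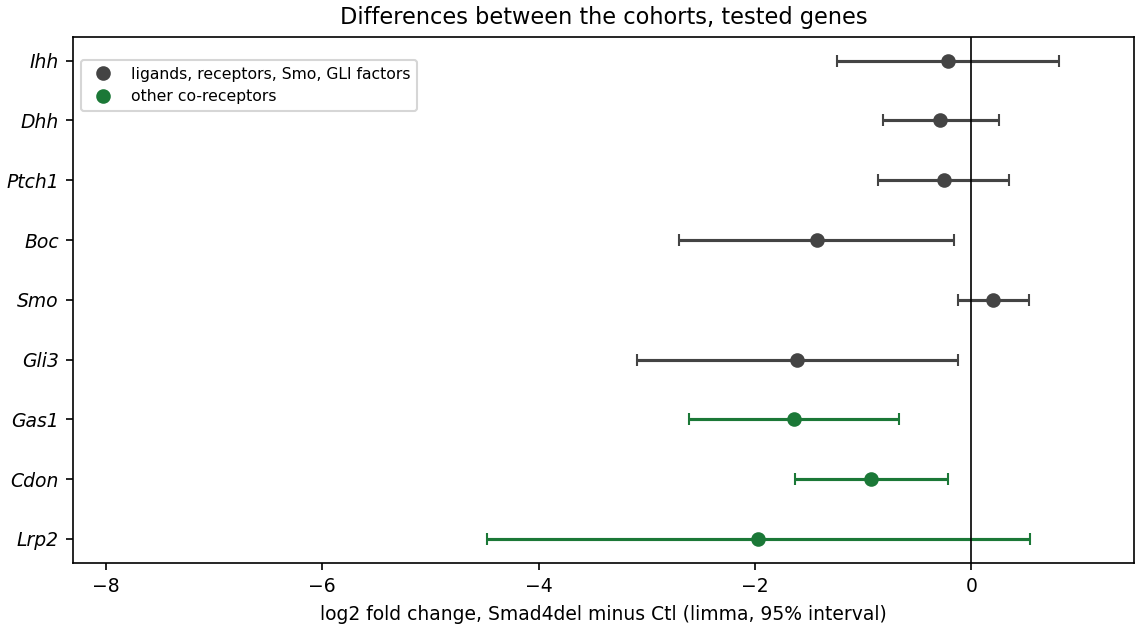
Log2 fold change with its 95% interval (*Smad4del* minus *Ctl*, limma) for the 6 tested members (grey) and the 3 other co-receptors (green). *Smo* is the only one above 0, at 0.20, and the co-receptors lie between -0.93 for *Cdon* and -1.97 for *Lrp2*.

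Genes for making and releasing the ligand were not called by limma (0 higher and 0 lower of 8 tested, median log2 fold change -0.27). At an unadjusted p under 0.05 they numbered 2, or 25.0% against 27.4% of all genes tested. Both DESeq2 and edgeR called *Gpc3* lower. *Gpc3*, a glypican that binds Hedgehog ligand at the cell surface, had 188, 127, 257, 536 and 322 in *Smad4del* mice, against 993, 242, 3126, 1109 and 1717 in *Ctl* mice, and again the *Ctl* mouse within the *Smad4del* range was A5219. Its log2 fold change was -2.08 (SE 0.584, limma adjusted p = 0.053). The adjusted p was 0.00367 by DESeq2 (0.0188 without A5217) and 0.0404 by edgeR (0.0993 without A5217). Limma called it with mouse number range (mice numbered A52 against A54 and A56) as a term (0.0452), at a minimum mean of 50 (0.0473), with sample weights (0.036), without *Smad4del* mouse A5447 (0.0378) and without *Ctl* mouse A5219 (0.00586). *Gpc4*, a related glypican, was at 1496 ± 236 in *Smad4del* and 1923 ± 331 in *Ctl* mice (-0.36, limma adjusted p = 0.134).

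Genes that control SMO and the GLI proteins, such as *Sufu*, *Kif7* and the kinases that mark GLI for processing, were not called (0 of 33 by limma or DESeq2). At an unadjusted p under 0.05 they numbered 3, or 9.09% against 27.4% of all genes tested. Of the 33, 23 had a negative log2 fold change, or 69.7% against 50.6% of all genes tested, with a median of -0.13. The most abundant, *Prkar1a*, a regulatory subunit of protein kinase A, was at 10730 ± 577 in *Smad4del* and 11815 ± 278 in *Ctl* mice (-0.14, limma adjusted p = 0.188). Its cohorts did not overlap (highest *Smad4del* mouse 11332, lowest *Ctl* mouse 11458, exact permutation p = 0.00794). It was the only 1 of the 33 without overlap, against 8.09% of all genes tested. *Csnk1a1*, casein kinase 1 alpha, was at 6016 ± 298 in *Smad4del* and 6465 ± 475 in *Ctl* mice (-0.10, limma adjusted p = 0.388). Ciliary transport genes were also not called by limma (0 of 26, with 5, or 19.2%, at an unadjusted p under 0.05, against 27.4% of all genes tested). Of the 26, 22 had a positive log2 fold change, or 84.6% against 49.4% of all genes tested, with a median of 0.20. *Bbs2*, higher in *Smad4del* mice, was the only 1 of the 26 without overlap between the cohorts (exact permutation p = 0.00794), against 8.09% of all genes tested. Examples were *Dync2li1*, a light intermediate chain of the ciliary dynein motor, with 1654 ± 201 in *Smad4del* and 1276 ± 228 in *Ctl* mice (0.39, limma adjusted p = 0.101), and *Ift57*, a subunit of the transport trains, with 1590 ± 86.6 in *Smad4del* and 1397 ± 147 in *Ctl* mice (0.19, limma adjusted p = 0.195).

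The list of genes known to respond to Hedgehog signalling in various tissues, without the members, had 0 higher and 0 lower of 17 tested by limma, with 10 of 17 at an unadjusted p under 0.05 (58.8%, against 27.4% of all genes tested) and a median log2 fold change of -0.59. With mouse number range as a term, limma called 2 of them lower, *Sfrp1* (adjusted p = 0.031) and *Ccnd2* (adjusted p = 0.0423). Its most abundant genes, *Spp1* (osteopontin, 457072 ± 49119 in *Smad4del* and 359949 ± 57427 in *Ctl* mice, log2 fold change 0.35, limma adjusted p = 0.166) and *Sox9* (8235 ± 1032 in *Smad4del* and 7774 ± 1213 in *Ctl* mice, 0.09, limma adjusted p = 0.67), are also markers of cholangiocytes. DESeq2 called 6 of this list, named here after their values were seen, with 29.4% of the 17 lower and 5.88% higher. Over all genes tested these shares were 8.92% lower and 6.20% higher. The 5 lower ones were *Sfrp1*, a secreted WNT inhibitor (174 ± 50.6 in *Smad4del*, 440 ± 229 in *Ctl*), the growth factor *Bmp4* (167 ± 17.4 in *Smad4del*, 329 ± 129 in *Ctl*), the Notch ligand *Jag2* (128 ± 40.8 in *Smad4del*, 275 ± 126 in *Ctl*), the cyclin *Ccnd2* (1513 ± 317 in *Smad4del*, 2301 ± 585 in *Ctl*) and the transcription factor *Snai1* (9.31 ± 5.65 in *Smad4del*, 32.2 ± 20.3 in *Ctl*). The higher one was *Foxm1*, a driver of mitotic gene expression (337 ± 121 in *Smad4del*, 164 ± 44.1 in *Ctl*). Limma adjusted p for these 6 lay between 0.0617 for *Jag2* and 0.103 for *Snai1*. *Jag2* was the only 1 of the 17 whose cohorts did not overlap (exact permutation p = 0.00794), against 8.09% of all genes tested.

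Endothelial markers and stellate, fibroblast and mesothelial markers had lower mean levels in *Smad4del* mice. Mesenchymal cells are known to express *Gli2*, *Gli3*, *Boc* and *Gas1*. Of 16 endothelial markers, 14 were called lower in *Smad4del* mice by limma (87.5%, against 4.69% of all genes tested) and 15 by DESeq2 (93.8%, against 8.92%). Their mean log2 level was between 8.68 and 9.83 in *Smad4del* and between 10.2 and 11.6 in *Ctl* mice, without overlap (summed normalized counts 10340 to 21370 in *Smad4del*, 29041 to 76160 in *Ctl*). The most abundant, *Plvap*, averaged 2279 in *Smad4del* and 8246 in *Ctl* mice. Of 18 stellate, fibroblast and mesothelial markers, 17 were tested and 3 were called lower by limma (*Dcn*, *Acta2* and *Hgf*), or 17.6% against 4.69%. DESeq2 called 9 lower (also *Upk3b*, *Col3a1*, *Lrat*, *Pdgfra*, *Pdgfrb* and *Col1a1*), or 52.9% against 8.92%. The mean log2 level, between 8.04 and 8.58 in *Smad4del* and between 8.68 and 10.1 in *Ctl* mice, did not overlap either (sums 26214 to 35249 in *Smad4del*, 40677 to 70936 in *Ctl*). No marker of these lists was at 0 in all *Smad4del* mice. All 16 endothelial and 17 of the 18 other markers passed the filter, which *Gli2* did not, so they are no match for *Gli2* in abundance. The most abundant of the list, *Rgs5*, averaged 13385 in *Smad4del* and 13080 in *Ctl* mice. By mouse, this level was 8.23, 8.04, 8.22, 8.43 and 8.58 in *Smad4del*, against 10.1, 9.14, 9.56, 8.68 and 8.74 in *Ctl* mice. Among *Ctl* mice, A5215 and A5221 were highest in this mean marker level, in *Gli2* reads and in *Boc* counts. The lowest *Gli3* count of the cohort (6.53) was that of A5215. In marker level A5219, with 0 *Gli2* reads, lay above A5626 and A5628, which had 15 and 11 *Gli2* reads. The part of these cell types in the lower *Boc*, *Gli2*, *Gli3* and *Gas1* was not tested. In sorted bulk samples, fewer cells of a type and less RNA per cell cannot be told apart.

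**Figure D4:**
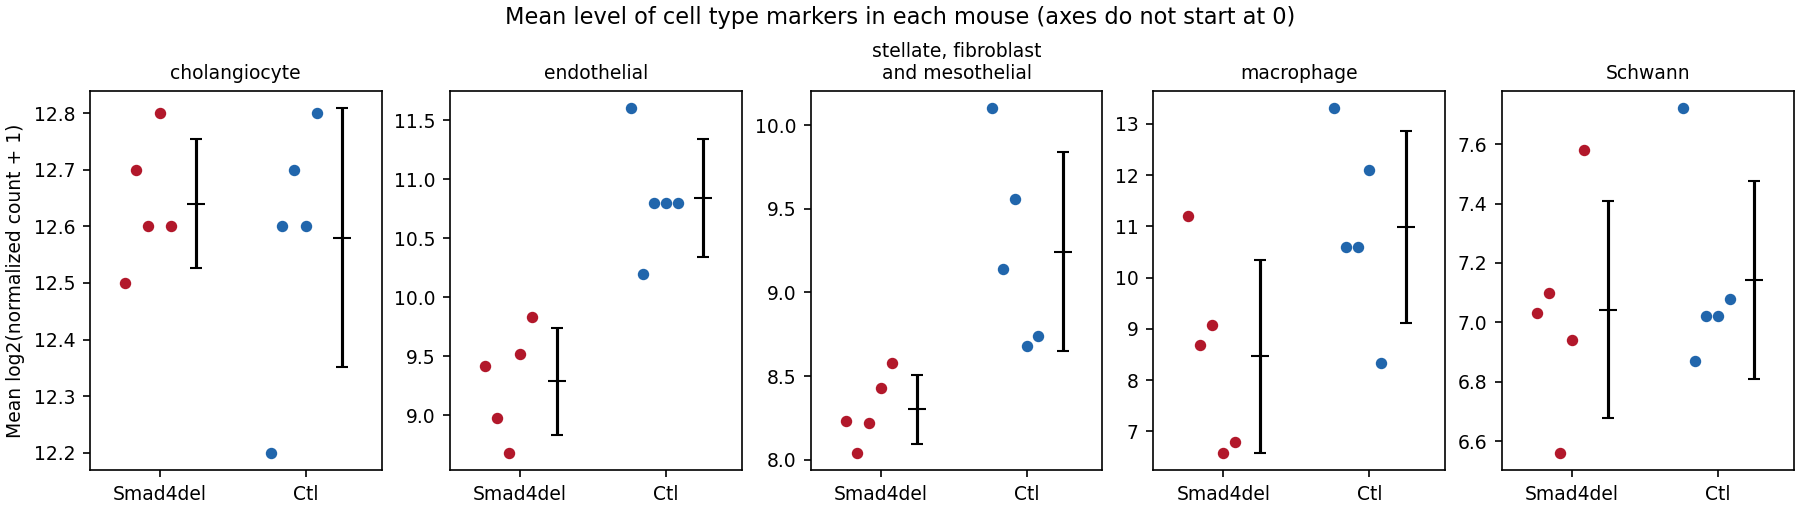
Mean log2(normalized count + 1) of 5 marker lists in each mouse (1 point per mouse, *Smad4del* left of *Ctl*, tick and bars mean ± SD, n = 5; axes do not start at 0). Endothelial markers lie at or below 9.83 in *Smad4del* and at or above 10.2 in *Ctl* mice, stellate, fibroblast and mesothelial markers at or below 8.58 in *Smad4del* and at or above 8.68 in *Ctl* mice, and the cholangiocyte and Schwann lists overlap.

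Cholangiocyte markers were high in both cohorts, with a mean log2 level between 12.5 and 12.8 in *Smad4del* and between 12.2 and 12.8 in *Ctl* mice. Of the 14, 2 were called higher in *Smad4del* mice (*Krt19* and *Onecut1*) and 1 lower (*Sctr*). Over all genes tested, 2.43% were called higher and 4.69% lower. Macrophage markers were not called by limma or DESeq2 (0 of 16, with 15, or 93.8%, at an unadjusted p under 0.05, against 27.4% of all genes tested). They lay between 6.58 and 11.2 in *Smad4del* and between 8.33 and 13.3 in *Ctl* mice, with *Cd14*, the most abundant, at 24152 in *Smad4del* and 29803 in *Ctl*. The remaining lists overlapped between the cohorts: lymphocyte and neutrophil markers (1.44 to 3.12 in *Smad4del*, 1.71 to 4.53 in *Ctl*, most abundant *S100a9*, *Ly6g* at 0 throughout, *Cd4* called lower), hepatocyte markers (9.14 to 10.6 in *Smad4del*, 9 to 9.74 in *Ctl*, most abundant *Alb*) and erythroid markers (1.84 to 8.37 in *Smad4del*, 3.78 to 7.74 in *Ctl*, most abundant *Hbb-bs*, *Slc4a1* at 0 throughout).

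The genes whose levels followed each tested member most closely from mouse to mouse were found after the mean of each cohort was removed, over 10 mice that share their libraries and depth, and are given as a description. For *Ptch1* they were *Gcfc2* (Pearson r = 0.979, Spearman rho = 0.988), *Arfgap3* (r = 0.951) and *Rdh10* (r = 0.948), and for *Boc* they were *Ap3m2* (r = 0.966), *Abca8a* (r = 0.952) and *Fbxo31* (r = 0.951). *Gli3* was followed most closely by *Grhl2* (r = 0.942), *Wnt7b* (r = 0.94) and *Ccdc137* (r = 0.939), *Smo* by *Exoc3l4* (r = 0.956), *Gm9833* (r = 0.943) and *Zfp523* (r = 0.942). The genes nearest to *Ihh* were *Tbx3* (r = 0.968), *Ccdc88b* (r = 0.95) and *Rnf157* (r = 0.909), and those nearest to *Dhh* were *Cdc73* (r = 0.973), *Med20* (r = 0.936) and *Cav1* (r = 0.934). These values are high by selection among all genes tested, and no other member was among these genes.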

How the data were processed

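Each library came from 1 mouse. For the deposited signal values (read counts per gene divided by a size factor), the authors used Trimmomatic 0.36, STAR 2.5.2b, GRCm38.p5 with GENCODE M12, featureCounts of subread 1.5.0p3 and DESeq2 1.14.1 in R 3.3.2. The processing notes also name mm9, and whether multi-mapping reads were counted in the deposited table cannot be read from the sources used here. Values were whole multiples of 1 read, which gave back the reads. In A5217 that step is close to 1, so counts were also tested without this mouse. Genes with a mean of at least 10 entered a limma 3.58.1 model (R 4.3.3) of log2(normalized count + 1), with cohort as the only term, a trended prior and Benjamini-Hochberg adjustment over all genes tested. Fold changes on this scale understate low genes. Recovered reads in edgeR 4.0.16 or in DESeq2 1.42.0, pseudocounts 0.5 and 10, no filter, a minimum of 50, median and quantile scaling, sample weights, mouse number range and leaving out each mouse were alternatives, and for members under the filter edgeR and leaving out each mouse without a filter were added after seeing the data. Scripts were tested on simulated data. Exon lengths and positions are from GENCODE M21 on GRCm38. Members, pathway lists and marker lists were chosen with earlier results of these data known. Some listed genes are not reported here and are left out of the lists. Named were all members, *Smad4*, called pathway genes or else the 2 most abundant of each list, every other co-receptor, and the 3 genes most like each tested member. That the mice were separate animals is as the methods state.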

Additional observations from a re-analysis of the deposited data

Results flagged for a closer look

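Of 42 sets of 5 mice examined, 4 held a mouse far from the other 4, where chance flags about 1 in 20 such sets. *Smo* in *Ctl* mouse A5215 had a log2 level of 10.3, below the other *Ctl* mice, with a gap to the nearest mouse of 0.783 of the range. *Ctl* mouse A5219 was the low one for 2 genes, with a log2 level of 0 for *Gli2* (gap 0.855 of the range) and 1.83 for *Lrp2* (0.909). The mean log2 level of the Schwann markers in *Ctl* mouse A5215 was 7.72, above the other *Ctl* mice (gap 0.755).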

How the results depend on the processing

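Under 22 alternatives no member was called higher, and members called lower numbered 0 except without the filter (1, *Gli2*), by DESeq2 (2, *Boc* and *Gli2*) and by DESeq2 without A5217 (1, *Gli2*). In the rest of the 22, *Shh*, *Gli1*, *Gli2* and *Hhip* fell under the filter and could not be called. *Dhh*, *Ptch1*, *Smo*, *Boc* and *Gli3* kept their sign in every alternative that tested them. The log2 fold change of *Ihh* turned to 0.01 with quantile scaling and 0.00 with sample weights, and lay between -0.44 and 0.10 with a mouse left out. Other pathway genes called higher numbered 2 by DESeq2, 3 by DESeq2 without A5217, and 0 to 1 with a mouse left out. Those called lower numbered 0 without the filter, with quantile scaling or by edgeR without A5217, 2 at a minimum mean of 50 or with sample weights, 7 by DESeq2 (5 without A5217), 4 with mouse number range as a term, and 0 to 5 with a mouse left out. Of the genes each fit tested, 4.69% were called lower in the main fit, 1.90% without the filter and 8.39% by DESeq2. Such shares are not given for the other settings, and the cause of the changes was not tested. By the study's methods, controls were littermates where this could be done, but the labels do not give which mice shared a litter. No analysis paired by litter was therefore made. Depth limits *Shh*, *Hhip* and the GLI factors, which rest on at most 150 reads per cohort.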

Other observations

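*Gli2* was 1 of 58 genes, among 27011 above 0 in any mouse, with 0 reads in every *Smad4del* mouse and reads in at least 4 *Ctl* mice, and 7 of the 58 had a *Ctl* mean at or above that of *Gli2* (12.7 normalized counts). The others of these 7 were *Fez1* (21.1), *Rgs7* (15.8), *Col7a1* (15.5), *Rimklb* (15.1), *Myh15* (14.9) and *Dync1i1* (13.6). The reverse pattern, 0 reads in every *Ctl* mouse and reads in at least 4 *Smad4del* mice, was found for 32 genes, 1 of them at that level.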
